A study of Mus musculus with 8 samples.

Results

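The genes Itgax, Clec7a, Gpnmb, Spp1 and Igf1 were followed across microglia of white and grey matter from young and old mice. They were taken from the deposited count table by symbol, and all 5 were found among its 51810 genes. The series holds 8 libraries in 4 groups of 2: white matter (corpus callosum) and grey matter of wild type mice aged 21 months, and the same tissues at 4 months. The labels state neither the strain nor the sex, and do not say whether a group's 2 libraries stem from different animals, so p-values measure the spread between these libraries, which may be technical. A region label names the corpus callosum for all 8 samples, grey matter included, and the split rests on the titles and tissue labels. The cells had been drawn with magnetic beads against CD11b, which microglia share with other myeloid cells. In such bulk samples, fewer cells of a type and less RNA per cell cannot be told apart.

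Microglia that carry CD11c on their surface form a state described in developing white matter, in aging and around myelin damage and amyloid plaques. Such cells are phagocytic and rich in genes of lysosomes and lipid handling. Itgax encodes CD11c itself, the alpha chain of an integrin that pairs with the beta chain encoded by Itgb2 and is also made by dendritic cells. Clec7a encodes Dectin-1, a lectin receptor for fungal beta-glucans that signals through the kinase Syk. Gpnmb encodes a transmembrane glycoprotein of phagocytes and pigment cells. Spp1 and Igf1 encode secreted proteins, osteopontin, which binds integrins and CD44, and insulin-like growth factor 1, which acts on neighbouring cells and is known to support oligodendrocytes.

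Library totals ran from 3273258 to 6315782 counts, and levels are given in CPM, the usual depth-scaled count, with TMM library sizes. All 20 homeostatic microglia markers examined, such as P2ry12 and Tmem119, were detected in every library. Among white matter samples of 4 months, the first library was unlike all others: its homeostatic markers summed to 6986 CPM, against 22630 to 35449 CPM in the other 7 libraries, and its oligodendrocyte markers to 65019 CPM, against 200.4 to 818.7 CPM. Each result that rests on that library is given with it and without it. Without it, 4-month white matter is 1 library, which is assumed to vary like the other groups.

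Promoter sequence was drawn from RefSeq (GRCm38.p6) for all 5 genes, as 7 windows of 250 bases before a start site. The build behind the counts is not given in the sources used here, and these sequences were matched by symbol only. Both strands were searched for the AP-1 motif TGANTCA, the ETS motif GAGGAAGT, the E-box letters CATGTG and CACGTG, and the consensus NF-kB motif. Of 32851 promoter windows of this length, 6.75% held the AP-1 letters, 2.44% the ETS letters, 12.3% and 6.02% the E-box letters CATGTG and CACGTG, and 5% the NF-kB motif. Itgax and Igf1 each held the AP-1 letters once, beginning 56 and 37 bases before the start. The first of the Spp1 windows held the ETS letters, beginning 113 bases before the start. The windows of Gpnmb and Clec7a held none of the 5 motifs. The 3 windows with a match are shown, with that of Gpnmb, whose level followed that of Spp1 most closely among the 5 genes. Capitals mark the motif letters.
Itgax, chr7:128129300-128129549, plus strand: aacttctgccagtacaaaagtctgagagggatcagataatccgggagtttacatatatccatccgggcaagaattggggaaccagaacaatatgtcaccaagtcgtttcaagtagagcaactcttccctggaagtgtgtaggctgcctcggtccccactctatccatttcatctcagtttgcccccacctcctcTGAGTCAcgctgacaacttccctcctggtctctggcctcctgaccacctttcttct
Igf1, chr10:87860861-87861110, plus strand: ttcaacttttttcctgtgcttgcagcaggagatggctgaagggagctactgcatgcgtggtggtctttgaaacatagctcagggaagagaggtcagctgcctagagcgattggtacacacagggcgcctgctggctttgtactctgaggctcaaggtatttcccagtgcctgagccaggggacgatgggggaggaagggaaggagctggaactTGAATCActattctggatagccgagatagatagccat
Spp1, chr5:104434861-104435110, plus strand: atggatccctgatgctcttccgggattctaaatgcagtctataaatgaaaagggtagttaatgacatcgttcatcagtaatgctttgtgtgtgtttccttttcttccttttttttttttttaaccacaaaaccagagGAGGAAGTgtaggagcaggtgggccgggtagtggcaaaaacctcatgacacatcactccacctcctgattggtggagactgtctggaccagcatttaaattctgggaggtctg
Gpnmb, chr6:49036268-49036517, plus strand: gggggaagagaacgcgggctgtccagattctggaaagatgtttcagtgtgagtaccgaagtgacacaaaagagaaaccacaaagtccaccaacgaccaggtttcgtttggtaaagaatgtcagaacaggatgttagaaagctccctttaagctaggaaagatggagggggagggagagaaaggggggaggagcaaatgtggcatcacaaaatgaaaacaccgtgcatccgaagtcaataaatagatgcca

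At 21 months, 4 of the 5 genes were higher in white than in grey matter, and Clec7a did not pass the test. Itgax stood at 217.1 and 154.3 CPM in 21-month white matter, against 19.5 and 26.9 CPM in 21-month grey matter. Gpnmb stood at 73.6 and 112.9 CPM in white matter, against 1.58 CPM in the first grey matter library and a count of 0 in the second, where 3 counts would be 0.833 CPM. Spp1 stood at 346.5 and 278.1 CPM in white matter, against 4.92 and 4.44 CPM in grey matter. For these 3 genes every white matter library lay well above both grey matter libraries. Igf1 stood at 62.3 and 64 CPM in white matter, against 4.73 and 5.27 CPM in grey matter, with the white matter libraries nearly equal. Clec7a stood at 241.8 and 116.8 CPM in white matter, against 45.3 and 17.2 CPM in grey matter. The Clec7a groups did not overlap either, but within each group the first library was more than double the second. Groups that do not overlap, white matter higher, were found for 21.2% of the 14717 genes tested.

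In edgeR's quasi-likelihood test on the 4 libraries of 21 months, with Benjamini-Hochberg adjustment over all genes tested, Gpnmb rose by 6.62 ± 0.64 log2 units (SE, adjusted p = 0.0118) and Spp1 by 6.03 ± 0.235 (adjusted p = 1.6e-06). The size for Gpnmb rests on 8 and 0 grey matter counts: it was 11.52 without the first grey matter library, where grey matter is at 0 and the fitted value is no bound, and 5.84 without the second. Igf1 rose by 3.65 ± 0.247 (adjusted p = 0.000103) and Itgax by 3.003 ± 0.237 (adjusted p = 0.000454). Clec7a differed by 2.48 ± 0.738 (adjusted p = 0.423) and passed narrowly in limma with quality weights, at 2.49 (adjusted p = 0.0465). The 4 of 5 called stand beside 0.985% of all genes called higher, 0.591% called lower and 1.58% called in either direction; DESeq2 made the same 4 calls beside 1.24% of genes called higher. Since the members were proposed with earlier results of these libraries known, that contrast is a description of the genes and no independent evidence. In the fit of all 8 libraries none of the 5 passed (adjusted p between 0.869 and 1), and 0 genes did (0% of 16237, with 381 at an unadjusted p under 0.05). Without the first 4-month white matter library, 7 libraries gave the same 4 calls, with adjusted p between 0.000244 and 0.0426, beside 0.0742% of genes called higher.

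**Figure D1:**
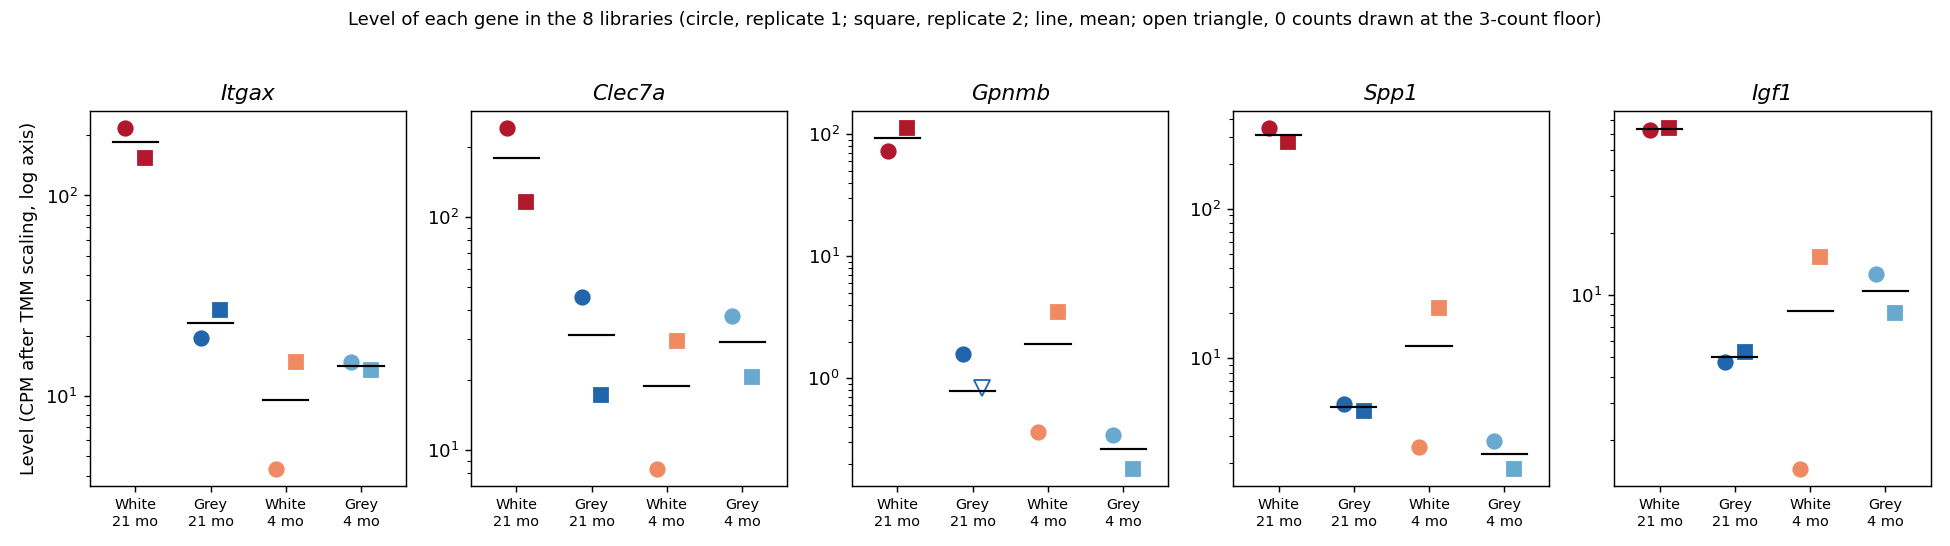
Level of each gene in CPM (log axis) in the 8 libraries, by tissue and age; circles are replicate 1, squares replicate 2, lines the group mean, and the open triangle is the count of 0 of Gpnmb drawn at the floor of 3 counts. Both 21-month white matter libraries lie above all other libraries for each gene, as for 5.68% of 16237 genes. For Spp1, Gpnmb and Igf1 the second 4-month white matter library comes next, at 21.7, 3.49 and 15.2 CPM.

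At 4 months, white and grey matter were set side by side to see which of the 5 genes were already higher in young white matter. None passed in edgeR's test, which called no gene (0% of 14863, with an unadjusted p under 0.05 for 640). By DESeq2, 364 genes were called (2.45%), none of them among the 5. The 2 white matter libraries differed widely, so each is described on its own.

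Spp1 stood at 2.53 and 21.7 CPM in 4-month white matter, against 2.78 and 1.82 CPM in 4-month grey matter. The second white matter library was the high one, with 87 counts against 26 in both grey matter libraries together, a ratio of 9.40 (95% exact counting interval 6.01 to 15.2, counting error only). Gpnmb stood at 0.361 and 3.49 CPM in white matter, against 0.347 and 0.182 CPM in grey matter. These groups did not overlap, as for 13.3% of genes, but Gpnmb rests on few counts, 1 and 14 in the white matter libraries and 3 in grey matter together. Its ratio of the second white matter library to grey matter was 13.1 (interval 3.66 to 71.2). On the log2 scale, in the fit of 7 libraries without the first, Spp1 differed by 3.24 ± 0.336 (edgeR adjusted p = 0.111) and Gpnmb by 3.603 ± 1.08 (adjusted p = 0.92); neither passed, and 0% of 17509 genes did, with 779 at an unadjusted p under 0.05. In that fit 4-month white matter is 1 library, so these differences describe that library. With both libraries, Spp1 differed by 2.41 ± 1.16 (adjusted p = 1), and Gpnmb did not pass the filter on low counts.

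Igf1 stood at 1.45 and 15.2 CPM in 4-month white matter, against 12.7 and 8.18 CPM in 4-month grey matter. Its second white matter library stood at 1.45 times the grey matter level (counting interval 1.05 to 2.00), and in the fit of 7 libraries it differed by 0.56 ± 0.364 (edgeR adjusted p = 0.92). Itgax stood at 4.34 and 14.7 CPM in white matter, against 14.7 and 13.5 CPM in grey matter. Clec7a stood at 8.31 and 29.4 CPM in white matter, against 37.5 and 20.5 CPM in grey matter. For both receptors the second white matter library lay between the 2 grey matter libraries, with ratios of 1.04 (interval 0.76 to 1.41) for Itgax and 1.01 (interval 0.81 to 1.25) for Clec7a. These intervals cover counting error and not the spread between libraries. In the fit of 7 libraries Itgax differed by 0.079 ± 0.345 (adjusted p = 0.978) and Clec7a by 0.043 ± 0.731 (adjusted p = 0.996), and with both white matter libraries by -0.55 ± 0.775 and -0.60 ± 0.775 (adjusted p = 1 for each). With the first white matter library alone, Spp1 differed from grey matter by 0.076, Itgax by -1.76, Clec7a by -1.86 and Igf1 by -2.89; none passed (adjusted p between 0.0705 and 0.982), beside 17.4% of genes called. In all, 3 of the 5 genes were higher in the second white matter library than in both grey matter libraries, as were 31.6% of 17509 genes.

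Because the first 4-month white matter library held few microglial transcripts, the 5 genes were also set against the summed counts of the 20 homeostatic markers of the same library. Per 10000 such counts, Spp1 came to 3.62 and 9.04 in 4-month white matter, against 0.783 and 0.681 in grey matter. Gpnmb came to 0.517 and 1.45 in white matter, against 0.0979 and 0.0681 in grey matter. Itgax came to 6.21 and 6.13 in white matter, against 4.16 and 5.04 in grey matter. On this scale the white matter libraries of Itgax were nearly equal, while those of Spp1 and Gpnmb still differed from each other, and the groups of these 3 genes did not overlap. Clec7a came to 11.9 and 12.3 in white matter, against 10.6 and 7.70 in grey matter. Igf1 came to 2.07 and 6.34 in white matter, against 3.57 and 3.07 in grey matter, and was the member whose groups overlapped. White matter lay above grey matter without overlap for 41.4% of 17509 genes on this scale, and below it for 3.32%. In the first white matter library the values rest on 7 counts of Spp1 and 1 count of Gpnmb. With this scaling in edgeR's test of the 4-month libraries, Spp1 differed by 3.12 ± 1.33 (adjusted p = 0.362), Itgax by 0.42, Clec7a by 0.40 and Igf1 by 0.39. The last 3 lay below 0 with TMM scaling, and none of the 4 passed under either.

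**Figure D2:**
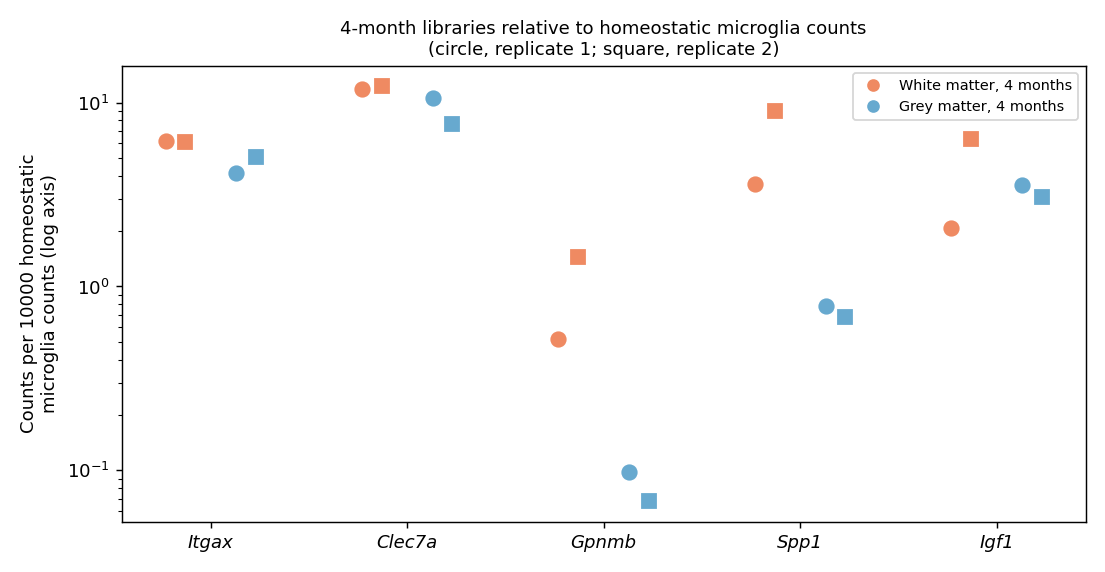
Counts of each gene per 10000 counts of the homeostatic markers (log axis) in the 4-month libraries, white matter left and grey matter right for each gene; circles are replicate 1 and squares replicate 2. Both white matter libraries lie above both grey matter libraries for every gene but Igf1, as for 41.4% of 17509 genes. They do so by most for Gpnmb and Spp1, of which the first white matter library held 1 and 7 counts.

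Within white matter, all 5 genes stood higher in both 21-month libraries than in both 4-month libraries, as did 19.8% of the 14623 genes tested. Itgax averaged 185.7 ± 44.4 CPM (SD, n = 2) at 21 months and 9.53 ± 7.34 CPM at 4 months, and Clec7a 179.3 ± 88.4 CPM at 21 months and 18.9 ± 14.9 CPM at 4 months. Gpnmb averaged 93.2 ± 27.7 CPM at 21 months and 1.93 ± 2.21 CPM at 4 months. Spp1 averaged 312.3 ± 48.4 CPM at 21 months and 12.1 ± 13.6 CPM at 4 months, and Igf1 63.1 ± 1.15 CPM at 21 months and 8.33 ± 9.74 CPM at 4 months. At 4 months the 2 libraries lay far apart, and the SD exceeded the mean for Gpnmb, Spp1 and Igf1.

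In edgeR's test of the 4 white matter libraries the log2 differences were 5.50 ± 1.04 for Gpnmb, 4.67 ± 1.16 for Spp1, 4.26 ± 0.795 for Itgax, 3.24 ± 0.848 for Clec7a and 2.89 ± 1.08 for Igf1. None passed (adjusted p = 0.945 for each), and no gene did (0%, with 415 at an unadjusted p under 0.05). DESeq2 on the same libraries called 4 of the 5 (all but Igf1), beside 0.15% of genes called higher. The outcome turned on the 4-month libraries, and with 1 of them left out the fit kept 1 residual degree of freedom. Without the first, the 3 remaining libraries gave calls for Gpnmb, which rose by 4.70, Spp1 by 3.83, Itgax by 3.64 and Igf1 by 2.03 (adjusted p between 8.64e-05 and 0.00787), beside 0.383% of genes called higher; Clec7a differed by 2.59 (adjusted p = 0.493). Without the second, all 5 were called, with rises of 4.45 to 7.905 (adjusted p between 1.36e-05 and 0.0147), beside 20.5% of genes called higher. In the fit of 7 libraries, Spp1 rose by 3.83 ± 0.35 (adjusted p = 0.0403) and was the 1 gene called (0.00571% of 17509); Itgax missed at 3.65 ± 0.388 (adjusted p = 0.0688).

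The second 4-month white matter library can be read as a share of the 21-month white matter mean. For Igf1 it held 24.1% of that mean (95% exact Poisson interval 18.4% to 31.0%, counting error only) and for Clec7a 16.4% (13.6% to 19.7%). It held 7.93% for Itgax (6.03% to 10.2%), 6.95% for Spp1 (5.57% to 8.57%) and 3.75% for Gpnmb (2.05% to 6.28%). These intervals take the 21-month mean as fixed and leave out the spread of its libraries, which for Clec7a stood at 241.8 and 116.8 CPM. Spp1 and Gpnmb, the genes with the highest ratio to 4-month grey matter, were thus among those with the lowest share of the old white matter level. The intervals of Spp1 and Itgax overlapped, so this share does not set Spp1 apart from Itgax.

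Within grey matter, none of the 5 genes passed between 21 and 4 months, and edgeR called no gene (0% of 15255, with 419 at an unadjusted p under 0.05, and 2, or 0.0131%, called by DESeq2). Itgax averaged 23.2 ± 5.25 CPM (SD, n = 2) in 21-month grey matter and 14.1 ± 0.912 CPM in 4-month grey matter, a log2 difference of 0.73 ± 0.326 (edgeR adjusted p = 0.977). Spp1 averaged 4.68 ± 0.341 CPM at 21 months and 2.30 ± 0.677 CPM at 4 months, a difference of 1.04 ± 0.644 (adjusted p = 0.977). The 21-month libraries of both genes lay above the 4-month ones, as for 16.9% of genes. Igf1 pointed the other way, at 5.001 ± 0.387 CPM at 21 months and 10.4 ± 3.17 CPM at 4 months, a difference of -1.04 ± 0.469 (adjusted p = 0.977). Its groups did not overlap, as for 17.7% of genes in that direction. Clec7a overlapped, at 31.3 ± 19.9 CPM at 21 months and 29.0 ± 11.97 CPM at 4 months, with a difference of 0.14 ± 0.524 (adjusted p = 0.99). Gpnmb was near the floor in grey matter at both ages, with 8 and 0 counts at 21 months and 2 and 1 counts at 4 months, and did not pass the filter on low counts.

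The aging change in white matter minus that in grey matter was positive for all 5 genes in the fit of all 8 libraries. It was 3.95 ± 1.2 on the log2 scale for Igf1, 3.90 ± 2.01 for Gpnmb, 3.64 ± 1.17 for Spp1, 3.54 ± 0.774 for Itgax and 3.12 ± 1.05 for Clec7a. None passed in edgeR's test (adjusted p = 1 for each), where 0% of 16237 genes were called, with 455 at an unadjusted p under 0.05. By DESeq2, Itgax passed (adjusted p = 0.0479) among 17 genes, and 0.0185% of genes were called higher. Without the first 4-month white matter library the values were 2.46 to 3.09 and none passed (adjusted p = 1 for each), nor did any gene (0%, with 507 at an unadjusted p under 0.05). Without the second, 4 of the 5 passed, beside 7.73% of genes called higher.

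**Figure D3:**
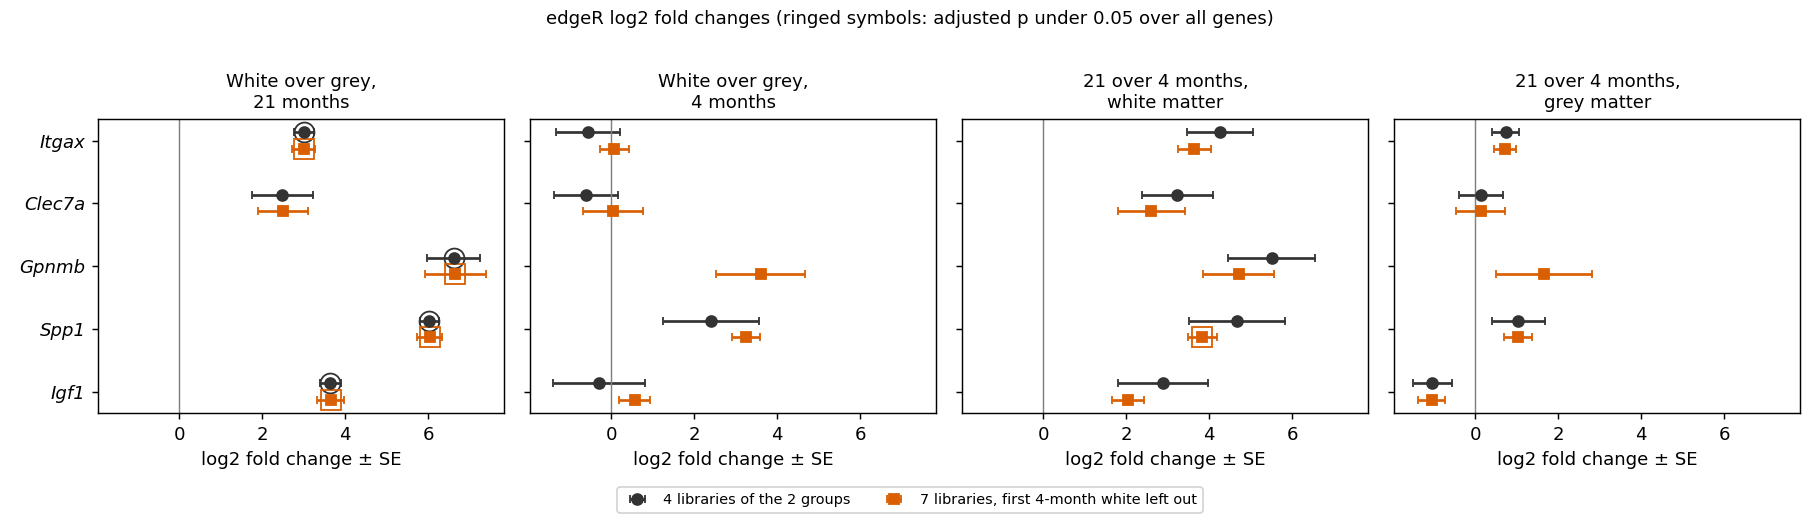
Log2 fold changes ± SE from edgeR for each gene in 4 comparisons; black circles are fits of the 4 libraries of the 2 groups, orange squares the fit of 7 libraries without the first of 4-month white matter, and rings mark an adjusted p under 0.05 over all genes. Rings stand at 4 of 5 genes for white over grey matter at 21 months and at Spp1 for the aging change in white matter; Gpnmb has no black circle in the 4-month and grey matter panels.

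For all 5 genes, 21-month white matter came first and did not overlap any other group, as for 5.68% of 16237 genes. For Itgax, 21-month grey matter followed, above 4-month grey and 4-month white matter, which overlapped each other. For Spp1 and Gpnmb, 4-month white matter came second by its mean, but it overlapped 21-month grey matter. By its mean, 4-month grey matter was lowest for both; it overlapped 4-month white matter for Spp1 and 21-month grey matter for Gpnmb. For Igf1 the second place was held by 4-month grey matter, whose libraries lay within the spread of 4-month white matter, and 21-month grey matter was lowest by its mean. For Clec7a the 3 lower groups overlapped one another. Alone, the second 4-month white matter library took second place for Igf1, at 15.2 CPM against at most 12.7 CPM in grey matter. For Spp1 and Gpnmb it lay above all grey matter libraries, at 21.7 against at most 4.92 CPM and 3.49 against at most 1.58 CPM. It still fell within 4-month grey matter for Itgax and within both grey matter groups for Clec7a. Being 1 library, it shows no spread.

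Across the 8 libraries the 5 genes correlated with each other in log2 CPM at Pearson's r of 0.863 to 0.977, highest for Spp1 and Gpnmb. Over the 7 libraries without the first of 4-month white matter the range was 0.848 to 0.976. These values are a description, since the libraries of a group share age and tissue. Among 9056 other genes whose highest group averaged 50 counts or more, those most like Itgax over 8 libraries were Sh3pxd2b, Mmp12 and Cst7 (r of 0.979, 0.977 and 0.973). Those most like Spp1 were Myo5a, Lpl and Arl5c (0.983, 0.982 and 0.978), and those most like Gpnmb were Capg, Lpl and Myo5a (0.978, 0.976 and 0.973). Igf1 was followed by Lox, Dna2 and Dusp2 (0.97, 0.962 and 0.961), and Clec7a by Hif1a, Olr1 and Lox (0.984, 0.978 and 0.959). With 7 libraries, 1 of the 3 was named again for Spp1 (Myo5a), Gpnmb (Capg) and Clec7a (Hif1a), and 0 for Itgax and Igf1. Lpl, a lipoprotein lipase, stood at 30.2 CPM in the second 4-month white matter library, against 2.43 and 5.64 CPM in 4-month grey matter, and the myosin gene Myo5a at 76.1 CPM, against 39.4 and 42.5 CPM in 4-month grey matter. Both were chosen for their likeness to Spp1 over these libraries, and 31.6% of genes were higher in that library than in both grey matter ones.

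The partners of the 5 proteins were read from the same fit at 21 months, in which 0.985% of all genes were called higher and 0.591% lower. Of the 15 integrin and CD44 genes, 1 was called higher and 1 lower in white matter, with a median log2 difference of 0.029 beside 0.0066 over all genes. Itga5, an alpha chain of the fibronectin receptor, rose by 1.37 ± 0.269 (edgeR adjusted p = 0.0472). Itgal, which encodes the alpha chain of LFA-1 on many leukocytes, fell by 1.54 on the log2 scale (adjusted p = 0.0127). Itgb2, the beta chain that pairs with CD11c, stood at 520.5 and 403.0 CPM in white matter, against 270.4 and 340.1 CPM in grey matter, a difference of 0.59 ± 0.189 that did not pass (adjusted p = 0.214). Itgam, the CD11b chain used for selection, differed by -0.0056 (adjusted p = 0.997), and the osteopontin receptor genes Cd44 and Itgav by -0.64 and 0.065 (adjusted p = 0.495 and 0.943).

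Counts in the next 3 lists stand beside the same 0.985% of genes called higher and 0.591% called lower. Of the 10 tested genes of IGF1 receptors and binding proteins, Igf2r, a receptor that carries cargo to lysosomes, was the 1 called, with a rise of 1.18 ± 0.247 (edgeR adjusted p = 0.0457). Igf1r, the receptor of IGF1, and Igfbp4 differed by -0.27 and 0.075 (adjusted p = 0.688 and 0.965). Of 14 tested genes of Dectin-1 signalling, none was called higher, and Clec4e, which encodes the receptor Mincle, fell by 2.36 on the log2 scale (adjusted p = 0.00862). Syk and its adaptor gene Card9 differed by -0.28 and -0.12 (adjusted p = 0.677 and 0.946). Of 11 tested genes around GPNMB and the MiT/TFE transcription factors, 2 were called, both higher. These were Atp6v0d2, a proton pump subunit, by 4.27 ± 0.9 (adjusted p = 0.0472) and Sdc4, a cell-surface proteoglycan that binds GPNMB, by 1.17 ± 0.167 (adjusted p = 0.00747). Atp6v0d2 rests on few counts, at 4.94 and 4.94 CPM in white matter, against 0.394 and 0 CPM in grey matter. In those grey matter libraries 3 counts would be 0.591 and 0.833 CPM. Mitf, a factor known to drive Gpnmb in pigment cells and osteoclasts, stood at 73.9 and 62.0 CPM in white matter, against 35.1 and 44.1 CPM in grey matter, and did not pass, at 0.78 ± 0.202 (adjusted p = 0.11). Tfec was at a count of 0 in both white matter libraries and at 1.38 and 1.67 CPM in grey matter, which is few counts. It was not among the genes tested in this fit. In the fit of 7 libraries it differed by -5.83 ± 2.42 and did not pass (edgeR adjusted p = 0.84). The median was 0.175 for the IGF1 list, 0.016 for the Dectin-1 list and 0.124 for the GPNMB list.

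Of the 37 tested genes that accompany the CD11c state in other settings, 18 were called higher and 0 lower in 21-month white matter. Of all genes, 0.985% and 0.591% were, and the median of the list was 1.04 beside 0.0066 over all genes. The partner lists too were chosen with earlier results of these libraries known. This contrast is therefore a description and no independent evidence. The largest rises were those of Lpl, Atp6v0d2, Apoe and Mmp12, a secreted metalloprotease, at 5.02, 4.27, 3.87 and 3.76. The size for Atp6v0d2, and so its place in this order, is uncertain, since both grey matter libraries held fewer than 3 counts of it. In the fit of 7 libraries 4 of the 37 were called (Lpl, Apoe, Mmp12 and the growth factor gene Csf1), beside 0.0742% of genes called higher, and none of the partner genes of the integrin, IGF1, Dectin-1 and GPNMB lists was. At 4 months, 10 of 35 tested genes of this list lay above 0 in white matter (median -0.65). Without the first white matter library 12 of 37 did (median -0.23). The homeostatic markers also lay low there, with 1 of 20 above 0 (median -1.03), and 3 of 20 without that library (median -0.39). Within white matter, 34 of 37 genes of the list lay above 0 at 21 months (median 1.56) and 35 of 37 without that library (median 1.22). For the homeostatic markers it was 19 of 20 (median 0.598), and 8 of 20 without that library (median -0.16). Within grey matter 15 of 35 genes of the list lay above 0 (median -0.015), and 1 of 20 homeostatic markers (median -0.22). Over all genes the medians of these fits lay between -0.0216 and 0.0244. EdgeR called none of the genes of the 5 partner lists in these 3 comparisons (4 months, aging in white matter, aging in grey matter), with or without that library. It called 0% of all genes there, apart from 0.00571% called higher for aging in white matter without that library. The lack of calls is thus nothing particular to the lists.

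Other cells in a CD11b selection also make some of the 5 genes. The 12 dendritic cell markers summed to 37.6 and 38.3 CPM in 21-month white matter, against 80.0 and 49.97 CPM in 21-month grey matter, where Itgax was lower. Of these markers Ccl17 was at 0 in the first white matter library, and Flt3 was at 3.53 and 0.494 CPM in white matter, against 6.89 and 0.833 CPM in grey matter. The 12 markers of border-associated macrophages summed to 46.8 and 89.6 CPM in white matter, against 183.2 and 148.0 CPM in grey matter, with Lyve1, Cd209f and Cd209b at 0 in the first white matter library. The 12 neutrophil markers summed to 996.1 and 555.6 CPM in white matter, against 3027 and 2715 CPM in grey matter. The 12 monocyte markers summed to 218.7 and 287.2 CPM in white matter, against 602.5 and 448.0 CPM in grey matter. All 4 lists were lower in the white matter libraries, in which the 5 genes were higher. Which cells made the 5 genes was not tested. Itgal and Clec4e, which were not called in the fit of 7 libraries, lay lower with the 4 lists. The part of the cells of these lists in those 2 differences was not tested either.

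Choroid plexus and ependymal markers summed to 306.0 and 9414 CPM in 21-month white matter, against 361.4 and 259.8 CPM in 21-month grey matter. Spp1, Itgax and Clec7a were higher in the first of these white matter libraries, where that sum was low, and Gpnmb and, by little, Igf1 were higher in the second. At 4 months that sum was 2111 and 5547 CPM in white matter, against 183.2 and 20.5 CPM in grey matter, so it lay highest in the library that also held the most Spp1 and Gpnmb of that age. Pericyte and smooth muscle markers summed to 12.3 and 594.5 CPM in 4-month white matter, against 147.3 and 944.9 CPM in 4-month grey matter. The part of these cells in the 4-month levels was not tested.

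**Figure D4:**
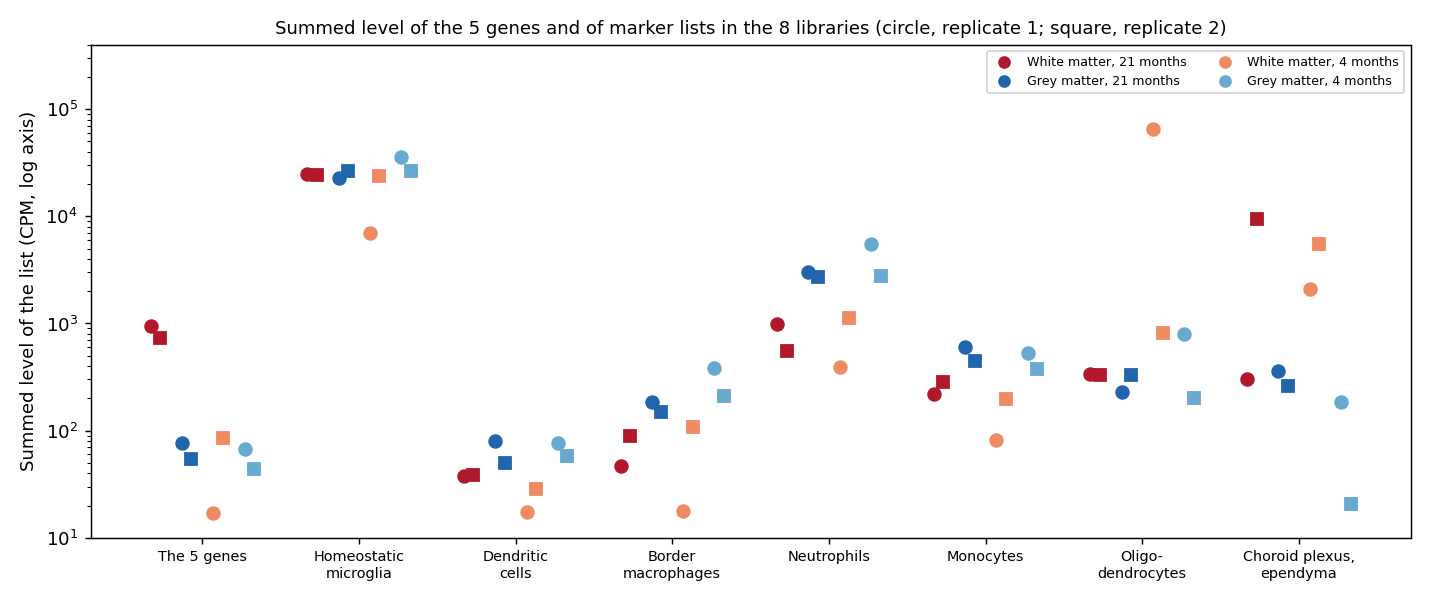
Summed level in CPM (log axis) of the 5 genes and of 7 marker lists in the 8 libraries, by tissue and age; circles are replicate 1 and squares replicate 2. The 5 genes sum to 941.3 and 726.0 CPM in 21-month white matter, against 17 to 84.6 CPM in the other 6 libraries, while the oligodendrocyte sum of the first 4-month white matter library stands above all others.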

How the data were processed

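The authors deposited estimated counts per gene symbol. Depending on the library, 15.9% to 17.8% of nonzero values departed from a whole number by over 1e-06; all were rounded. The tools given per the submitters' processing notes are Partek and DESeq2, for which no version and no step is stated; the sources used here name no aligner, genome build, annotation or strand setting. A deposited normalised table was not used.

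Each comparison was fitted to the libraries of its own 2 groups with edgeR 4.0.16 in R 4.3.3 (filterByExpr, TMM, robust quasi-likelihood, 2 residual degrees of freedom), and the age by region difference to all 8. Calls needed an adjusted p under 0.05 (Benjamini-Hochberg, all genes tested). With 1 library left out, a fit of 2 groups kept 1 residual degree of freedom. SEs come from the F statistics. With 2 against 2 libraries an exact permutation test cannot go below p = 0.333 (two-sided), so none was run. CPM used TMM factors over 8 libraries; intervals cover counting error only. Correlations used log2 CPM with a prior count of 2.

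The members, lists, fits and the rule for named genes were chosen with earlier results of these data known. The rule names the 5 genes, the 3 genes most like each, up to 4 called genes of each partner list and 10 fixed partners. Flt3 and the markers at 0 were named after their values were seen. The scripts were tested on simulated data, where the folds were recovered. The 4-library fits of 21-month and of grey matter libraries called more unchanged genes than the threshold implies, so calls near it are uncertain; the fits that hold the first 4-month white matter library called none of the changed genes, so no call there says little. Alternatives were DESeq2 1.42.0, limma 3.58.1 (voom with quality weights), other libraries, scalings and filters, a replicate block, and each library left out. Replicate numbers pair nothing by label.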

Additional observations from a re-analysis of the deposited data

Results flagged for a closer look

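Igf1 lay higher in both 21-month than in both 4-month white matter libraries, as did 19.8% of 14623 genes. It lay lower in both 21-month than in both 4-month grey matter libraries, as did 17.7% of 15255 genes. The opposite directions drew attention to it, though each on its own was common. The difference between these aging changes was 3.95 on the log2 scale in the fit of all 8 libraries and did not pass in edgeR's test (adjusted p = 1).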

How the results depend on the processing

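At 21 months, 4 of the 5 genes and 232 genes in all were called for white over grey matter. With all 8 libraries 0 of the 5 and 0 genes were called. Genes in all numbered 19 with 7 libraries, 146 in limma with quality weights, 783 without the low-count filter, 522 with the replicate block and 84 to 457 with 1 library left out; 4 members were called each time 1 library was left out. At 4 months, where 0 genes were called, DESeq2 called 364, the unfiltered fit 715, and leaving out 1 library gave 0 to 2846, with 0 members in each. For aging in white matter, 7 libraries gave 1 gene and 1 member, DESeq2 269 genes and 4 members, the unfiltered fit 9 and 3, and leaving out 1 library 0 to 6204 genes and 0 to 5 members; the high end comes without the second 4-month library. For aging in grey matter, DESeq2 called 2 genes, the unfiltered fit 39, and leaving out 1 library gave 0 to 2216. For age by region, DESeq2 called 17 genes and 1 member, the unfiltered fit 470 and 4, and leaving out 1 library gave 0 to 2422 and 0 to 4. The cause of these differences was not tested beyond the libraries named. Of the values of single members under alternatives, 47 passed in both the reported fit and the alternative, 234 in neither, 28 only in the alternative and 5 only in the reported fit, and no called value changed sign.

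Over the 6 pairs of groups, the deviations of libraries with the same number correlated at 0.415 between 4-month white and grey matter, at 0.149 between 21-month white and 4-month grey matter, and at -0.141 to 0.0561 in the other 4 pairs, so the numbers did not pair the libraries throughout. With the replicate block at 21 months, Clec7a was called at 2.56 (edgeR adjusted p = 5.78e-07) and Gpnmb was not, at 6.57 (adjusted p = 0.0692). At 4 months, depth limits Gpnmb, which had 1 to 14 counts a library.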
